A study of Rattus norvegicus with 2 samples.

Results

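The miR-132 and miR-212 cluster was followed in exosomal RNA through every row of the count table named miR-132 or miR-212, whichever arm of the hairpin the row counted. This rule found 4 of the 635 miRNAs listed, namely mmu-miR-132-3p, mmu-miR-132-5p, mmu-miR-212-3p and mmu-miR-212-5p, the prefix being that of the mouse names in the table. The exosomes were released into the medium by primary cardiomyocytes of newborn Wistar rats (age 1 to 2 days), which had been enriched by differential adhesion and plated with 5′-bromo-2′-deoxyuridine, an agent that restrains dividing cells. After serum starvation, normal cardiomyocytes were left untreated, and hypertrophy was induced in the others by 48 h of angiotensin II (Ang II) at 1 μmol/L. Their exosomes are called NC-Exo and HC-Exo. As each was sequenced in only 1 library, the differences in read counts have no replicate library to check them, and the tests compare these libraries, not the conditions.

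MiRNAs are short RNAs cut from a hairpin precursor, of which usually 1 arm, the guide, is kept in an Argonaute protein and the other is mostly lost. Bases 2 to 8 of the guide, the seed, pair with target mRNAs, so that guides with the same seed recognise overlapping sets of targets. The miR-132 and miR-212 hairpins are processed from a common primary transcript and are best known from neurons, where the transcription factor CREB drives them. In cardiomyocytes they are known to promote hypertrophic growth, and the transcription factor FoxO3, which restrains growth, is a described target.

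The mature sequences of all 4 members are shown because the comparison between them turns on the seed they share or do not share. They were taken from RefSeq for the rat assembly GRCr8 by name, and are printed 5′ to 3′ with the seed in capitals.
miR-132-3p: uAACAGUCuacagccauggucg
miR-212-3p: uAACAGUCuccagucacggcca
miR-132-5p: aCCGUGGCuuucgauuguuacu
miR-212-5p: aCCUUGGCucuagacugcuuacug

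In GRCr8, both hairpins lie on the plus strand of chromosome 10, with miR-132-3p at chr10:60522091-60522112 and miR-212-3p at chr10:60521811-60521832. Their 5p arms are at chr10:60522055-60522076 and chr10:60521771-60521794. The hairpin genes are 182 bases apart, and no other miRNA gene lies within 25 kb of miR-212. The counts themselves carry mouse names and no coordinates.

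The 3p arms are equal at 17 of 22 bases, and the first difference is at position 10, counted from 1 at the 5′ end. From miR-132-3p to miR-212-3p the differences are A10C, C14U, U17C, U20C and G22A. No other rat mature miRNA of the RefSeq table has the seed AACAGUC. Outside the cluster, the fewest differences were 10 over 17 bases compared for miR-132-3p and 9 over 21 for miR-212-3p, aligned from the first base without gaps. The number of differences was not scaled by the bases compared, which favours short sequences. The 5p arms have different seeds, and over 22 bases they differ at 8, the first being G4U within the seed.

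The miR-132 hairpin is shown with its arms in capitals, since the arm balance is measured on it. It spans 101 bases at chr10:60522033-60522133, and 14 bases of loop separate the arms.
Mir132: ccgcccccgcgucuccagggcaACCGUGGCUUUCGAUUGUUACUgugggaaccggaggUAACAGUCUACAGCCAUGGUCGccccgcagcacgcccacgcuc

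Over all rows, the counts of the NC-Exo library summed to 102608 miRNA reads and those of the HC-Exo library to 133155. Thus 1 read stood for 9.75 and 7.51 reads per 1000000 miRNA reads (RPM). Some rows had identical counts, such as miR-486a-5p and miR-486b-5p with 654 and 875 reads each. A read may therefore be counted in more than 1 row of these totals. Muscle miRNAs were present, and miR-1a-3p, miR-133a-3p, miR-208a-3p, miR-208b-3p and miR-499-5p together held 16.7% of the NC-Exo reads and 18.1% of the HC-Exo reads. Of 5 neuronal markers, the NC-Exo and HC-Exo libraries held 0 and 1 reads of miR-124-3p, 2 and 1 of miR-9-5p, and 1 and 1 of miR-138-5p. No row was listed for miR-137-3p. The remaining marker, miR-128-3p, which muscle also expresses, had 29 and 72 reads and was the only neuronal marker with enough reads to test (log2 ratio 0.94, adjusted p = 0.0161, exact binomial test). Its part in the levels of the cluster was not tested.

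Both 3p arms were present at moderate levels, and their order was not the same in NC-Exo and HC-Exo. In NC-Exo, miR-212-3p had 51 reads, which is 497 RPM (95% Clopper-Pearson interval 370 to 653), and stood at rank 125. In the same library miR-132-3p had 45 reads, 439 RPM (320 to 587), at rank 134. These neighbours did not differ beyond their counting error.

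In HC-Exo, miR-132-3p had 78 reads, 586 RPM (463 to 731), and stood at rank 115. There miR-212-3p had 31 reads, 233 RPM (158 to 330), at rank 182. The intervals of the 3p arms overlapped in NC-Exo and did not overlap in HC-Exo. Intervals here reflect counting error alone, and PCR copies of a molecule would make them too narrow.

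**Figure D1:**
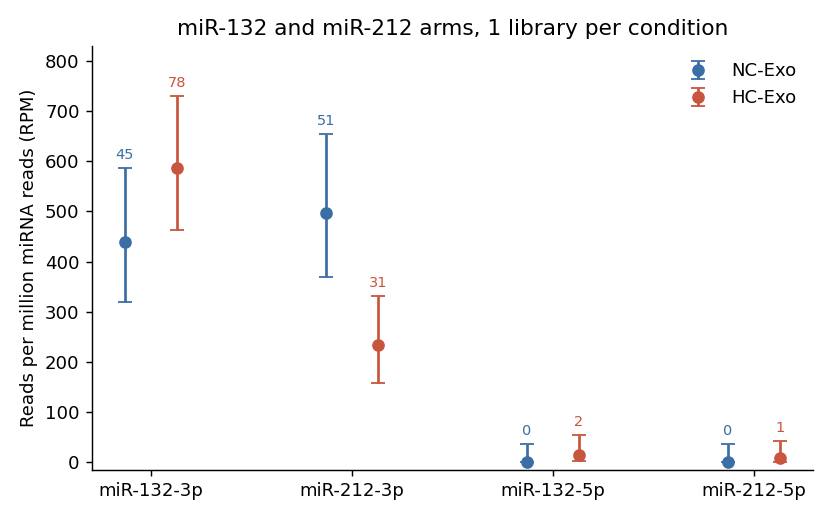
Level of each arm in RPM (vertical axis) in the NC-Exo library (blue) and the HC-Exo library (red), with points for the measured level, bars for the 95% Clopper-Pearson interval of counting error and numbers for the reads. The 3p arms had 45 and 78 reads (miR-132-3p) and 51 and 31 reads (miR-212-3p), whereas no 5p arm had more than 2.

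The level of miR-212-3p was lower in HC-Exo, and that of miR-132-3p was not called in either direction. To be called, a miRNA had to have an adjusted p-value below 0.05 together with a log2 ratio (HC-Exo over NC-Exo) of 1 or more in either direction. The p-value came from a two-sided exact binomial test of its reads with Benjamini-Hochberg adjustment over the 340 miRNAs with at least 10 reads in total. Over the whole table this rule called 4.71% of the tested miRNAs, 2.06% lower in HC-Exo and 2.65% higher.

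For miR-212-3p the level of HC-Exo divided by that of NC-Exo was 0.468 (95% interval from the exact binomial share 0.290 to 0.746), a log2 ratio of -1.09 (adjusted p = 0.00603, exact binomial test). The study had already picked this miRNA on the same libraries, so its call is not independent evidence. Its log2 ratio lay just past the limit of 1, and the interval reached to -0.42. Only 10 of the 340 tested miRNAs had a lower log2 ratio, and 1 of the 97 with between 50 and 200 reads in total.

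For miR-132-3p the ratio was 1.34 (0.914 to 1.97), a log2 ratio of 0.42 (-0.13 to 0.98), which was not past the threshold (adjusted p = 0.287, exact binomial test). The interval held no change as well as a rise close to the limit. A higher log2 ratio was found for 102 of the 340 tested miRNAs, whose median was 0.10.

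When cultures were assumed to vary with a coefficient of variation of 0.1, miR-212-3p was no longer called (edgeR's exact test, adjusted p = 0.175, unadjusted p = 0.00719). No spread between cultures could be estimated from these libraries.

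**Figure D2:**
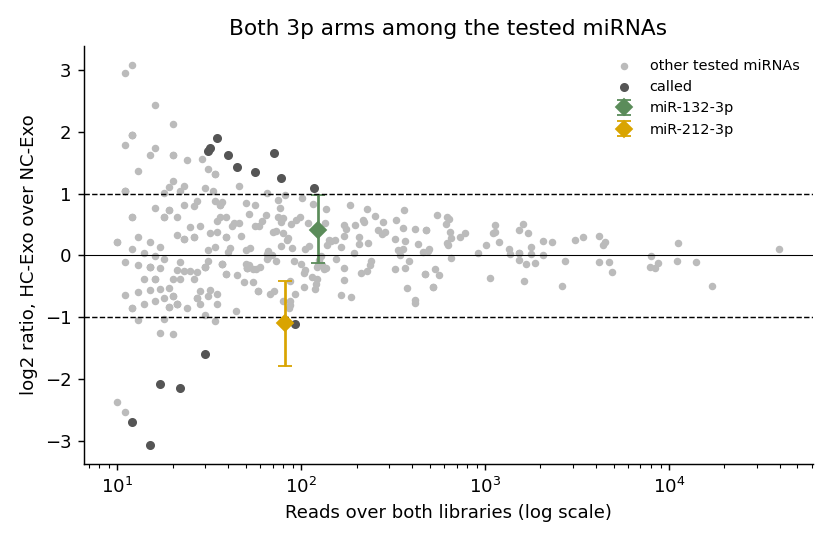
Log2 of the HC-Exo level over the NC-Exo level (vertical axis) against the reads over both libraries (horizontal log axis) for the 340 tested miRNAs, with called miRNAs in dark grey, dashed lines at the limits of 1 and -1, and bars for the 95% interval of both 3p arms. The point of miR-212-3p at -1.09 lies just beyond the lower limit, and that of miR-132-3p at 0.42 lies among the uncalled miRNAs.

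The total of reads with the shared seed was nearly the same in NC-Exo and HC-Exo, while its make-up was not. Together, miR-132-3p and miR-212-3p summed to 96 reads (936 RPM) for NC-Exo and to 109 reads (819 RPM) for HC-Exo. The ratio of this total was 0.875 (0.659 to 1.16), within counting error of no change (exact binomial test, p = 0.360, unadjusted). With the 5p arms included, all 4 members had 96 and 112 reads, a share of 0.0936% for NC-Exo (0.0758 to 0.114%) and of 0.0841% for HC-Exo (0.0693 to 0.101%).

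Within the shared-seed reads of NC-Exo, miR-132-3p made up 46.9% (36.6 to 57.3% by Clopper-Pearson). Its part was 71.6% (62.1 to 79.8%) within those of HC-Exo. As a ratio, NC-Exo had 0.882 reads of miR-132-3p for each read of miR-212-3p (0.578 to 1.34), and HC-Exo had 2.52 (1.64 to 3.95). In NC-Exo the ratio was within counting error of equal levels, and in HC-Exo it was above them. The odds of miR-132-3p over miR-212-3p were 2.84-fold higher in HC-Exo (1.54 to 5.30). The scaling of the libraries cancels in this comparison. Since miR-212-3p had been picked for its change in these libraries, that choice can by itself widen the difference, by an amount that was not measured.

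**Figure D3:**
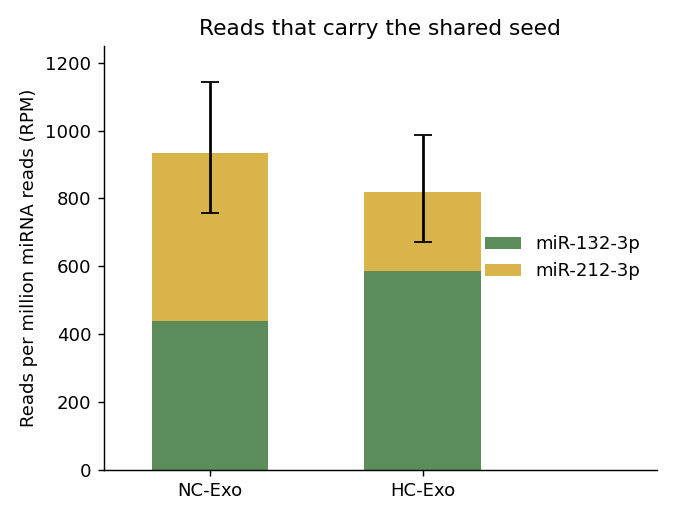
Stacked level in RPM (vertical axis, from 0) of miR-132-3p (green) and miR-212-3p (yellow) in the NC-Exo and HC-Exo libraries, with a bar for the 95% Clopper-Pearson interval of the total. The totals of 936 and 819 RPM have overlapping intervals, and miR-132-3p makes up 46.9% of the first and 71.6% of the second.

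The same comparison was made for pairs of listed miRNAs with equal seeds, to set the 3p arms of the cluster among the other seed families. Only rows matched by name to a single rat mature sequence were paired, so the seed families may be incomplete. By name, 312 of the 635 rows matched a single rat mature sequence, and 108 pairs from 36 seeds had at least 20 reads in total. Fisher's exact test gave an adjusted p-value under 0.05 for 18.5% of the pairs, and miR-132-3p with miR-212-3p was among them (p = 0.000362, adjusted p = 0.00435 over the 108 pairs). Pairs that share a member are not independent, and 16 of the 20 pairs past the threshold were among the 36 of the let-7 seed. Outside that seed 4 of 72 pairs passed, and by seed 4 of 36 had a pair that passed. Pairs with equal counts could not pass, such as let-7a-1-3p with let-7c-2-3p, which have the same mature sequence and 230 and 243 reads each.

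The size of the shift, a log2 odds ratio of 1.50 (0.62 to 2.41), was exceeded by 14 of the other pairs, of which 9 had a miRNA with 0 reads in a library. Of the 78 pairs in which each miRNA had at least 50 reads in total, none exceeded it. This is a description with no test, and the limit of 50 reads was chosen with the counts of both 3p arms known. The pairs of the let-7 seed that passed had far more reads and smaller shifts, such as -0.61 for let-7c-5p with let-7g-5p. A pair with a larger shift also passed, miR-148a-3p with miR-148b-3p (log2 odds ratio 2.07, 0.55 to 3.72, adjusted p = 0.0256 by Fisher's exact test), in which the rarer miR-148b-3p had 13 (NC-Exo) and 7 reads (HC-Exo).

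**Figure D4:**
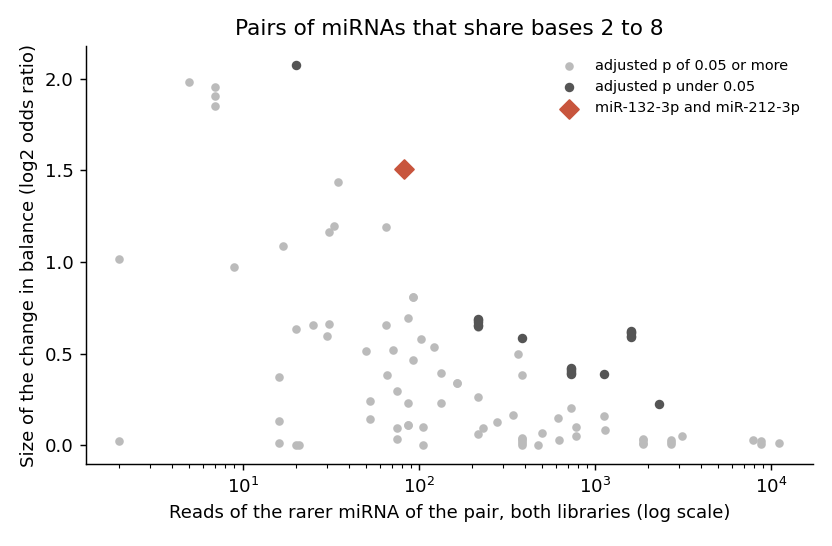
Size of the change in balance between HC-Exo and NC-Exo, as an absolute log2 odds ratio (vertical axis), against the reads of the rarer miRNA of the pair (horizontal log axis) for the pairs with a finite odds ratio. The pair of miR-132-3p and miR-212-3p (red diamond, 1.50) stands above the pairs whose rarer miRNA had as many or more reads, and the larger values belong to pairs whose rarer miRNA had few reads, whatever the reads of the other.

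The 5p arms were hardly detected. The NC-Exo library had 0 reads of miR-132-5p and the HC-Exo library 2. Likewise, miR-212-5p had 0 reads and 1 read. Taken as 3 counts of the total, a count of 0 in NC-Exo allows a share of up to 0.00292% of the reads, or 29.2 RPM, and the upper Clopper-Pearson limit drawn in the plot of levels is 36.0 RPM. Neither row reached the 10 reads needed for the test, and both libraries were at or under the floor of 3 reads, so no ratio is given.

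Reads of the miR-132 hairpin came from the 3p arm in 45 of 45 cases in NC-Exo, which allows a 5p share of up to 6.67% by the limit of 3 counts and 7.87% by Clopper-Pearson. In HC-Exo the 5p share was 2.50% of 80 reads (95% Clopper-Pearson interval 0.304 to 8.74%). Reads of the miR-212 hairpin came from the 3p arm in 51 of 51 cases in NC-Exo, which allows a 5p share of up to 5.88% and 6.98% by the same limits. In HC-Exo the 5p share was 3.12% of 32 reads (0.0791 to 16.2%). Thus the 3p arm held nearly all reads of both hairpins in either library.

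A difference in arm balance between HC-Exo and NC-Exo was not detectable at this depth for miR-132 (Fisher's exact test, p = 0.535, adjusted p = 0.822) or miR-212 (p = 0.386, adjusted p = 0.795). The adjustment was made over the 134 hairpins with both arms listed and at least 20 reads, of which 2.99% had an adjusted p-value under 0.05. Over both libraries, the 5p share was 1.60% for miR-132 and 1.20% for miR-212. Of the 134 hairpins, 17 had a lower 5p share than miR-132 and 12 a lower share than miR-212. The 3p arm had more reads in 84 hairpins and the 5p arm in 50. An imbalance of this size was not unusual at this depth, since the minor arm had under 2% of the reads in 13 of the 46 hairpins with between 50 and 200 reads.

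**Figure D5:**
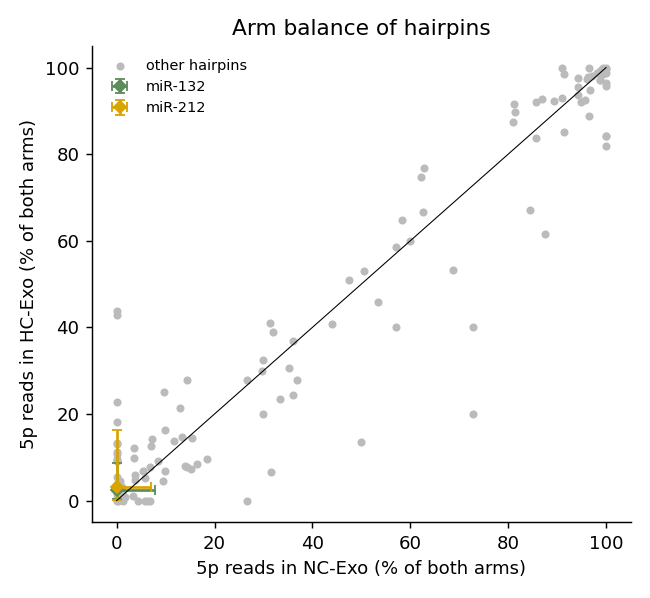
Share of 5p reads among the reads of both arms, in percent, in HC-Exo (vertical axis) against NC-Exo (horizontal axis) for the 134 hairpins tested, with bars for the 95% Clopper-Pearson interval of miR-132 (green) and miR-212 (yellow) and a line of equal shares. Both hairpins lie at the lower left corner, with 0% in NC-Exo and 2.50% and 3.12% in HC-Exo.

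The miRNAs most like the 3p arms were found by the distance over log2 RPM in NC-Exo and HC-Exo, which describes likeness in only these libraries. Nearest to miR-132-3p was miR-15b-3p, with 47 (NC-Exo) and 88 reads (HC-Exo) at a distance of 0.18. It was followed by miR-183-5p with 45 and 65 reads, and by miR-223-3p, a miRNA of myeloid cells, with 43 and 94. Nearest to miR-212-3p was miR-28c with 50 and 36 reads at a distance of 0.22, followed by miR-1306-5p with 45 and 35, and by let-7f-1-3p with 58 and 35. Members were left out of this search.

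Other miRNAs known to promote or restrain cardiomyocyte growth were set beside the cluster. Of 15 listed as promoting growth, 14 could be tested, 3 were called higher and 0 lower in HC-Exo, where 2.65% of all tested miRNAs were called higher, and their median log2 ratio was 0.19 against 0.10 over all 340 tested. The 3 called were miR-155 with 6 and 29 reads, miR-199a-5p with 19 and 59, and miR-499-5p, a miRNA encoded in a myosin gene, with 10 and 35. The table and the list also hold a separate entry for miR-155-5p, which had 11 and 8 reads and was not called (log2 ratio -0.84, adjusted p = 0.456, exact binomial test). The count of 3 thus rests in part on an entry that names no arm. Among rows otherwise in order of name, this entry stands between miR-434-5p and miR-450b-3p, so which miRNA it counts is uncertain. Without it, 2 of 13 tested miRNAs were called higher. With upper-quartile scaling 2 of the 3 were called, without miR-499-5p (adjusted p = 0.0504, exact binomial test), and with at least 50 reads in total only miR-199a-5p was. The study had picked the first and second of these on the same libraries. In contrast to them, miR-212-3p of the cluster was called lower.

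The most abundant of this list were miR-24-3p with 4466 and 6675 reads, miR-23a-3p with 3933 and 4418, and miR-21a-5p, a miRNA linked to cardiac fibrosis, with 1784 and 2588. The log2 ratios of these 3 were 0.20, -0.21 and 0.16. Each had an adjusted p-value under 0.05 by the exact binomial test but a ratio far below the limit. The 3p arms of the cluster were thus scarce beside them.

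Of 16 miRNAs listed as restraining growth, 15 could be tested, with 0 called higher, 0 lower and a median log2 ratio of 0.35. With at least 50 reads in total, 1 of the list, miR-29b-3p, was called higher (log2 ratio 1.01, adjusted p = 0.0338, exact binomial test). Without the limit on the ratio, 4 of the 15 tested had an adjusted p-value under 0.05 and were higher in HC-Exo and 1 was lower (exact binomial test). By the same rule, 6 of the 14 tested miRNAs promoting growth were higher and 1 was lower. Over all 340 tested miRNAs, 13.8% were higher and 8.53% lower. The most abundant was the muscle miRNA miR-1a-3p with 16614 and 23271 reads. The lists were not tested as sets.

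Markers of other cells also differed in share between the libraries. The blood-cell miRNAs miR-451a, miR-142a-3p and miR-223-3p summed to 62 reads (0.0604%) for NC-Exo and 131 (0.0984%) for HC-Exo, and no row was listed for miR-144-3p. With 2 reads in each library, miR-142a-3p was not tested. Of the other two, miR-223-3p had an adjusted p-value under 0.05 (log2 ratio 0.75, adjusted p = 0.0241, exact binomial test) and miR-451a did not (0.67, adjusted p = 0.288). The endothelial miR-126a arms together held 9.11% of the NC-Exo reads and 6.68% of the HC-Exo reads. The lower total came from miR-126a-5p with 8875 and 8185 reads (log2 ratio -0.49, adjusted p = 1.81e-107, exact binomial test). The log2 ratio of miR-126a-3p with 474 and 712 reads was 0.21 and missed the threshold (adjusted p = 0.0572, exact binomial test). The smooth muscle and fibroblast miRNAs miR-143-3p and miR-145a-5p held 2.30% and 2.69%, and of these miR-143-3p was higher in HC-Exo with 1596 and 2571 reads (adjusted p = 6.28e-10, exact binomial test). The part of these markers in the levels of miR-132-3p and miR-212-3p was not tested. Fewer vesicles of a source and less of a miRNA per vesicle cannot be told apart in such bulk RNA.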

How the data were processed

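Small RNA of exosomes was sequenced from 1 library of NC-Exo and 1 of HC-Exo. The deposited counts are raw reads of each mature miRNA under mouse names, summing to 102608 and 133155 over the rows. Rows with identical counts were kept as separate miRNAs. The submitters' processing notes name Bowtie2 and the mouse builds mm9 and GRCm38. Trimming and the miRNA annotation are not given in the sources used here. The authors also deposited normalized values, a signal in which 1 read is worth 12.1 (NC-Exo) or 9.23 (HC-Exo) in all but 1 row (within 0.1 read), which served only as an alternative. A deposited table of the authors' own fold changes, p-values and calls was not used.

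RPM were counts divided by library totals. With 1 library per condition no quasi-likelihood fit was possible. Instead, exact binomial tests were run over 340 miRNAs with at least 10 reads, and Fisher's exact tests over 134 hairpins and 108 seed-sharing pairs with at least 20 reads, each with Benjamini-Hochberg adjustment. Intervals are 95% exact (Clopper-Pearson or conditional). The floor was 3 reads in a library. Both tests were tested on simulated data with counting error alone, which does not cover the spread between cultures. Python 3.11.15 with scipy 1.17.1, and edgeR 4.0.16 and DESeq2 1.42.0 in R 4.3.3 were used.

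Sequences came from RefSeq (GRCr8), matched by name. The members and lists were chosen with earlier results of these data known. Besides the members, the text names the 3 miRNAs nearest in level to each 3p arm, miRNAs of the growth lists that were called or were the 3 most abundant, and markers. The let-7 and miR-148 pairs were named after their values were seen.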

Additional observations from a re-analysis of the deposited data

How the results depend on the processing

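No paired analysis was possible because NC-Exo and HC-Exo have 1 library each, which also leaves no replicate to omit. Under TMM, upper-quartile, DESeq2 and median scaling and totals without the 10 most abundant miRNAs, all log2 ratios shifted down by between 0.03 and 0.12, which goes in the direction of the call for miR-212-3p and does not test it. Its log2 ratio ranged from -1.22 with upper-quartile scaling to -1.01 with a pseudocount of 5 reads, and that of miR-132-3p from 0.29 to 0.42, never called. When a coefficient of variation between cultures of 0.1, 0.2 or 0.4 was assumed in edgeR's exact test, the log2 ratio of miR-212-3p stayed at -1.09 and was not called (adjusted p = 0.175, 0.768 and 1), since the spread assumed widens the error of the binomial test. The unadjusted p-values were 0.00719, 0.0441 and 0.240.

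The log2 odds of miR-132 over miR-212 were 1.50, or 1.49 with both arms summed and 1.48 with a pseudocount of 1 read. For the 5p arms alone no value could be given, as NC-Exo had no such reads. The log2 ratio of all members was -0.15, or -0.22 with TMM scaling and -0.25 without the 10 most abundant. With at least 50 reads in total, 1 miRNA promoting growth was called higher in place of 3, as miR-155 and miR-499-5p were then not tested, and 1 restraining growth, miR-29b-3p, in place of 0 (log2 ratio 1.01, adjusted p = 0.0338 by the exact binomial test), as fewer miRNAs were tested. With upper-quartile scaling 2 promoting growth were called higher, and that list's median log2 ratio went from 0.19 to 0.06. The median of the list restraining growth went from 0.35 to 0.23, as this scaling shifted all log2 ratios down by 0.12. Added after the data were seen, the authors' normalized values gave log2 ratios of 0.40 for miR-132-3p and -1.11 for miR-212-3p, with no test, and a pair filter of 50 reads kept the call of the 3p arms (Fisher's exact test, adjusted p = 0.00415). Leaving out the entry miR-155, also chosen afterwards, left 2 miRNAs promoting growth called higher and a median of 0.17. Depth limits what can be said of the 5p arms, as 1 read of any miRNA was 9.75 RPM in NC-Exo and 7.51 RPM in HC-Exo.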
